A study of Homo sapiens with 4 samples.

Results

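Activins and TGF-beta signal through related receptor kinases and shared SMAD proteins, and GDF15 is a distant relative with a receptor of its own. Of their genes, 10 were followed in 4 RNA-seq libraries, among them the ligand genes INHBA, INHBB, GDF15 and TGFB1 and the antagonist FST. The others were the receptors TGFBR1, TGFBR2 and ACVR1B and the signal transducers SMAD3 and SMAD7. All 10 were chosen by symbol, with their levels after GADD45G induction and in untreated cells already known. All were found among 26601 genes with a value in every library. All libraries came from MOLM-13, an established cell line of human acute myeloid leukaemia with an MLL-AF9 fusion and an internal tandem duplication of FLT3. The 2 untreated libraries received no doxycycline, and the 2 induced libraries came from cells given doxycycline (labelled 1 mg/ml) for 4 days to overexpress GADD45G. The sources used here give neither the construct's promoter nor whether the line was 1 clone. Cells treated with the drug but lacking the construct were not analysed here, so doxycycline and the expressed gene cannot be told apart. The libraries of a group are described as biological replicate experiments.

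Ligands of this family are made as precursors, cut by furin-like proteases and secreted as dimers. INHBA encodes the subunit of activin A and INHBB that of activin B, and follistatin (FST) binds activins and keeps them from their receptors. Activin or TGF-beta brings together type II and type I receptor kinases, and the type I kinase phosphorylates SMAD2 and SMAD3, which enter the nucleus with SMAD4. SMAD7 is induced by the signal and shuts the type I receptor down. In blood cells TGF-beta is known as an inhibitor of progenitor growth, and activin A as a product of stimulated myeloid cells. GDF15 is a distant member of the family, a stress-induced cytokine whose receptor GFRAL is known from the brainstem.

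Levels are given as RPKM, reads normalized for gene length and sequencing depth, so genes can be compared per length. Untreated 1 and 2 held 18778791 and 15683931 reads and induced 1 and 2 held 18895470 and 15968886 reads, recovered from the values. GADD45G stood at 10.5 and 0.289 RPKM in the untreated libraries and at 3236 and 2118 RPKM in the induced ones. Myeloid markers were present in part: PTPRC, CD33, SPI1 and LYZ were all above 10 RPKM in every library. MPO was at 0.162 to 0.278 RPKM, and FLT3 was at 0.958 and 1.19 RPKM untreated against 0.0889 and 0.0451 RPKM induced. LYZ was also lower after induction, at 1173 and 868 RPKM untreated against 268 and 242 RPKM, as were CD33 and MEIS1. PTPRC, MPO, SPI1, ITGAM and CD14 were higher in both induced libraries than in both untreated ones. In CSF1R and HOXA9 the groups overlapped. Untreated 1 and induced 1 stood apart by epithelial genes. Of 12 epithelial markers, 8 reached 1 RPKM in each of those libraries and 1 did so in each of the other two, and the markers summed to 47.9 and 44.4 RPKM against 5.80 and 2.12 RPKM. KRT19 and EPCAM were at 0 in untreated 2 and induced 2. Of 4 megakaryocyte markers PPBP was at 236 and 342 RPKM after induction against 1.19 and 0.0892 RPKM, and PF4 at 0.613 and 1.04 RPKM (7 and 10 reads) against 0 in both untreated libraries, while GP9 was at 0 in all libraries and ITGA2B reached at most 0.214 RPKM. All 3 listed erythroid markers were at 0, and the 6 endothelial markers summed to at most 0.267 RPKM. The 11 fibroblast markers summed to 5.58 and 5.32 RPKM untreated and to 7.89 and 7.32 RPKM induced, most of it from FAP (2.97 and 1.90 RPKM untreated, 4.27 and 4.10 RPKM induced), TAGLN (1.13 and 1.40 RPKM, then 2.23 and 2.13 RPKM) and ACTA2 (1.00 and 1.33 RPKM, then 0.542 and 0.372 RPKM). Of the other fibroblast markers none exceeded 0.329 RPKM, the level of COL1A1 in induced 1, beside 0.172 RPKM in induced 2 and 0.0108 and 0.0390 RPKM in the untreated libraries, and COL3A1 and DCN were at 0.0132 RPKM or less. The part of these other cell types in the results was not tested.

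INHBA, a ligand gene, had the largest difference of the 10 members on the log2(RPKM + 1) scale. INHBA was at 1.19 and 0.0762 RPKM in the untreated libraries and at 348 and 278 RPKM in the induced ones. Both induced values were far above both untreated values, and untreated 1 was well above untreated 2. The group means were 0.632 ± 0.786 and 313 ± 49.3 RPKM (SD, n = 2 per group), a 495-fold ratio. The size of that ratio rests on few reads: the untreated values came from 168 reads (95% exact Poisson interval 1.01 to 1.38 RPKM) and 9 reads (0.0348 to 0.145 RPKM), against 49490 and 33438 reads after induction. Taken from the untreated 1 and induced 1 libraries alone the ratio was 293-fold, and from untreated 2 and induced 2 alone 3649-fold. Against all induced libraries it was 4107-fold without untreated 1 and 263-fold without untreated 2. The lowest induced value was 234 times the highest untreated one. In rank INHBA went from 10363rd and 14175th of 26601 genes to 69th and 74th. Untreated 1, the library with more INHBA, was also the untreated library with more GADD45G and with the epithelial markers. INHBA was at 348 RPKM in induced 1, which held these markers, and at 278 RPKM in induced 2, where KRT19 and EPCAM were at 0. The part of GADD45G and of the epithelial cells in the INHBA levels was not tested.

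**Figure D1:**
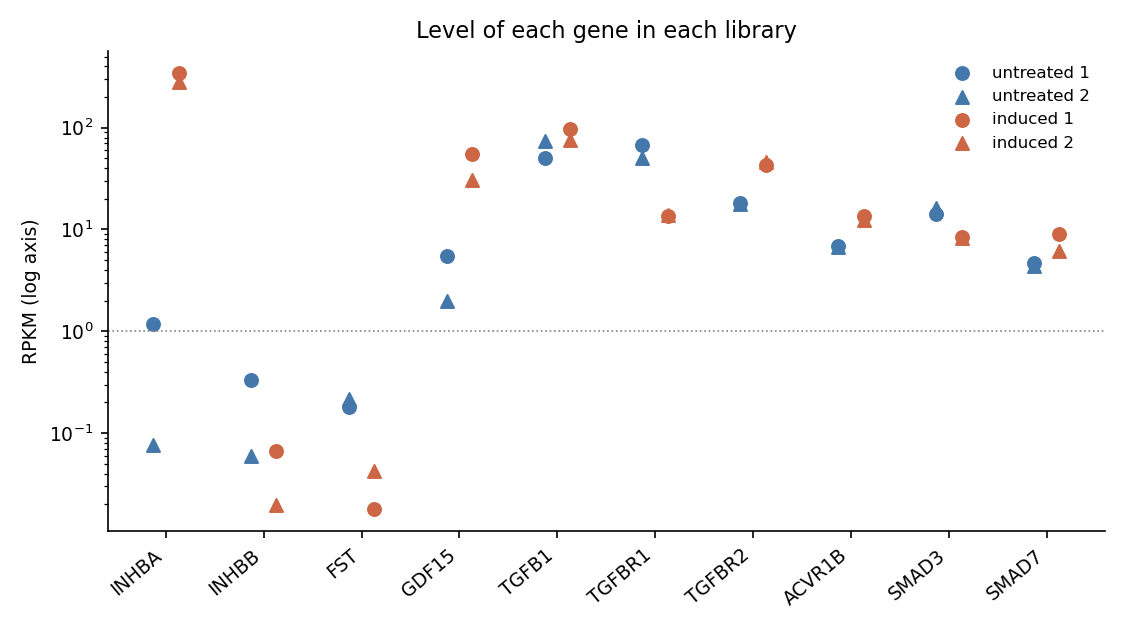
RPKM of the 10 genes in each library on a log axis, untreated in blue and induced in orange, with circles for untreated 1 and induced 1 and triangles for untreated 2 and induced 2; the dotted line marks 1 RPKM. INHBA moves from 1.19 RPKM or less to 278 RPKM or more, INHBB and FST stay under 1 RPKM in every library, and the other genes lie between 1.99 and 96.2 RPKM.

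GDF15 was the second ligand gene with a large difference. It was at 5.51 and 1.99 RPKM untreated and at 54.6 and 30.4 RPKM induced. The groups did not overlap, and within each group the library numbered 1 was the higher. The means were 3.75 ± 2.49 and 42.5 ± 17.1 RPKM (SD, n = 2 per group), an 11.3-fold ratio, which was 9.91-fold from the libraries numbered 1 alone and 15.3-fold from those numbered 2 alone. The ratio was 21.4-fold without untreated 1 and 7.71-fold without untreated 2. The untreated values came from 216 and 65 reads. Its receptor gene GFRAL was at 0.0831 RPKM or less in every library, and its coreceptor RET at 0.0479 RPKM or less.

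TGFB1, which encodes the main TGF-beta isoform of blood cells, was abundant throughout. It was at 50.3 and 74.4 RPKM untreated and at 96.2 and 75.2 RPKM induced. Induced 2 exceeded untreated 2 by very little, so the groups barely separated, and the ratio was 1.91 from the libraries numbered 1 alone and 1.01 from those numbered 2 alone. The means were 62.4 ± 17.0 and 85.7 ± 14.8 RPKM (SD, n = 2 per group), which differ by less than 2 SD of either group. In the reference annotation 215 exon bases of TGFB1 are shared with HNRNPUL1 on the opposite strand. HNRNPUL1 was at 52.0 and 69.3 RPKM untreated and at 35.0 and 37.1 RPKM induced, and its reads there cannot be told apart from those of TGFB1.

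INHBB, the other activin subunit gene, was barely detected. It was at 0.332 and 0.0597 RPKM untreated and at 0.0661 and 0.0195 RPKM induced, from 20, 3, 4 and 1 reads. The groups overlapped, and untreated 1 alone was above 0.1 RPKM. Without untreated 1 the log2(RPKM + 1) difference was -0.02. Untreated 1 and induced 1 carried the epithelial markers at like levels and held 20 and 4 reads of INHBB. The part of such cells in the INHBB reads was not tested. INHA, whose product pairs with these subunits to form inhibins, was at 0 in all 4 libraries, where a count of 0 allows up to 3 reads.

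The makeup of the ligand pool therefore differed between the groups. Over 29 ligand genes of the family listed in the files, the levels summed to 71.0 and 92.0 RPKM untreated and to 511 and 395 RPKM induced. TGFB1 held 70.9% and 80.9% of the untreated sums, and INHBA 1.67% and 0.0828%. After induction INHBA held 68.1% and 70.5%, TGFB1 18.8% and 19.0%, and GDF15 10.7% and 7.70%. These shares count transcripts per length and not secreted protein.

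**Figure D2:**
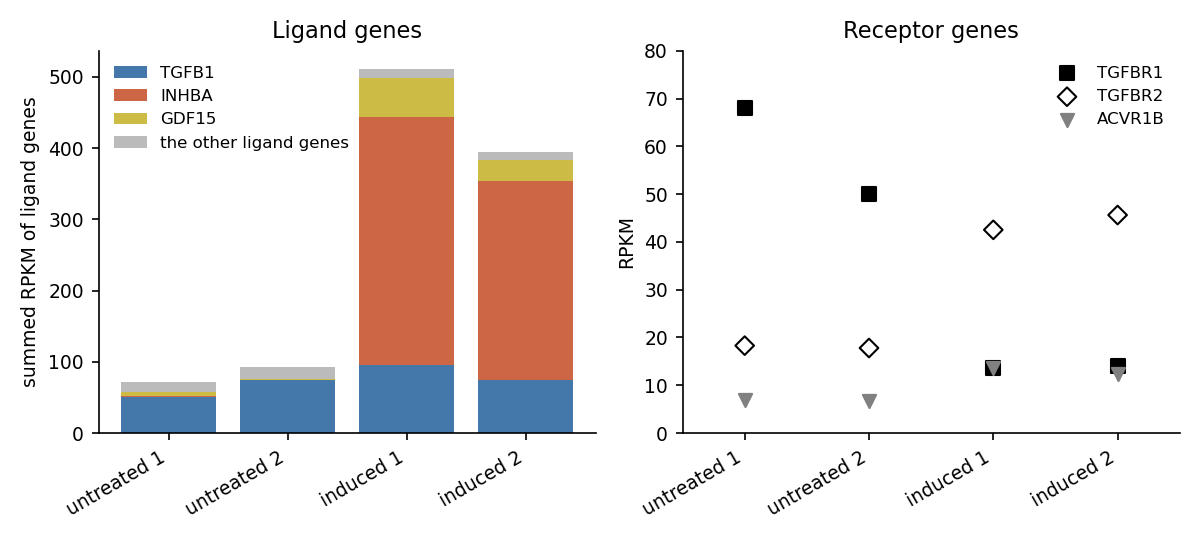
Left, summed RPKM of 29 ligand genes in each library, stacked by gene, with sums of 71.0 and 92.0 RPKM untreated and 511 and 395 RPKM induced; right, RPKM of TGFBR1 (squares), TGFBR2 (diamonds) and ACVR1B (triangles) in each library. INHBA makes up most of the induced bars, and TGFBR1 lies above TGFBR2 in the untreated libraries and below it in the induced ones.

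The promoters of INHBA and GDF15 are shown because these genes had the largest differences. The sequences are the 250 bases before the transcription start from RefSeq (GRCh38.p14), INHBA at chr7:41703091-41703340 on the minus strand and GDF15 at chr19:18385908-18386157 on the plus strand. They are named by symbol and were not placed on hg19, the build the submitters' notes name. Capitals mark TATAAA on the sense strand and CAGAC, the core letters of a SMAD-binding element, on either strand.
INHBA: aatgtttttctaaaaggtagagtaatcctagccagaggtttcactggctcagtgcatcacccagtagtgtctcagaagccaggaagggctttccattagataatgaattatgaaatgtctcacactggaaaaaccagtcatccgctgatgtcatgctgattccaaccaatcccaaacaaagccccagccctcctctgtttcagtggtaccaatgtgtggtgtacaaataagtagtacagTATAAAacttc
GDF15: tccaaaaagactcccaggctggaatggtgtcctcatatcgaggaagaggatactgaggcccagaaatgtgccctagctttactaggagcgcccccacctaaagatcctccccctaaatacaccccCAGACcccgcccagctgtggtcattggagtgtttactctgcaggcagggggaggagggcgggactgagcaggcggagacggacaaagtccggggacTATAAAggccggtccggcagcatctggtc
TATAAA began 11 bases before the start in INHBA, 29 bases before it in GDF15 and 35 bases before 1 of the starts of SMAD7, and it was in no other promoter of the members. It was searched for after these sequences had been seen, and 7.33% of 35116 promoters in the table hold it within 250 bases before to 50 after the start. CAGAC began 125 bases before the GDF15 start and, beyond the stretch shown, at base 28 after the INHBA start, and promoters of ACVR1B, SMAD3, SMAD7 and TGFBR1 held it too. All 10 members matched the table, with 25 promoters in all, and 12 of the 25 hold CAGAC on either strand, against 45.3% of all promoters. TGANTCA, the letters of an AP-1 site, occurred on either strand in promoters of FST, SMAD3 and TGFBR2 and in 7.71% of all promoters. GTCTAGAC (the SMAD palindrome, which contains no CAGAC), TGACGTCA (CRE) and a motif for NF-kB occurred on either strand in none of the 25, against 0.202%, 1.85% and 0.558% of all promoters. No binding was measured here.

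FST, the antagonist among the members, was close to the limit of detection. It was at 0.179 and 0.215 RPKM untreated and at 0.0178 and 0.0422 RPKM induced, from 10, 10, 1 and 2 reads. Both induced values lay below both untreated values. The high INHBA level in the induced libraries thus stood beside 3 reads of FST.

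The receptor genes did not all change in the same direction. TGFBR1, the type I receptor of TGF-beta, was at 68.1 and 50.01 RPKM untreated and at 13.7 and 14.0 RPKM induced. Both untreated values were high and both induced values low, with the induced pair close together. The means were 59.1 ± 12.8 and 13.8 ± 0.196 RPKM (SD, n = 2 per group), so TGFBR1 was 4.27-fold lower after induction. In bulk RNA, fewer cells that express a gene and less RNA per cell cannot be told apart.

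TGFBR2, the type II receptor that binds TGF-beta first, was higher after induction. It was at 18.3 and 17.8 RPKM untreated and at 42.5 and 45.6 RPKM induced. The values within a group lay close together and the groups were well apart, at 18.0 ± 0.351 and 44.1 ± 2.19 RPKM (SD, n = 2 per group; 2.44-fold). The ratio of TGFBR1 to TGFBR2 was 3.72 and 2.81 in the untreated libraries and 0.322 and 0.306 in the induced ones. The order of these receptor genes was thus opposite in the groups, while their sum went from 86.4 and 67.8 RPKM to 56.2 and 59.6 RPKM.

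ACVR1B, the type I receptor of activins, was at 6.91 and 6.72 RPKM untreated and at 13.6 and 12.4 RPKM induced. Both induced values were above both untreated values, and the means of 6.82 ± 0.130 and 13.02 ± 0.836 RPKM (SD, n = 2 per group) gave a ratio of 1.91. TGFBR1 stood at 9.86 and 7.44 times ACVR1B in the untreated libraries and at 1.01 and 1.12 times in the induced ones. The type I receptor genes of TGF-beta and of activin were thus at nearly equal levels after induction.

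SMAD3 was lower and SMAD7 higher after induction, by smaller margins. SMAD3 was at 14.3 and 16.1 RPKM untreated and at 8.47 and 8.29 RPKM induced. The groups did not overlap, and the means of 15.2 ± 1.25 and 8.38 ± 0.122 RPKM (SD, n = 2 per group) made SMAD3 1.81-fold lower. SMAD7 was at 4.72 and 4.39 RPKM untreated and at 9.06 and 6.14 RPKM induced. Its induced values spread more than the untreated ones and lay above them, at 7.60 ± 2.06 against 4.55 ± 0.233 RPKM (SD, n = 2 per group; 1.67-fold). SMAD3 exceeded SMAD7 by 3.03 and 3.67 times in the untreated libraries and was at 0.935 and 1.35 times SMAD7 in the induced ones. SMAD2, the partner of SMAD3, was at 8.21 and 7.28 RPKM untreated and at 7.72 and 7.61 RPKM induced, so that SMAD3 went from 1.74 and 2.21 times to 1.10 and 1.09 times the level of SMAD2.

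Ordered by mean level, the untreated cells had TGFB1 and TGFBR1 at the top, followed by TGFBR2, SMAD3, ACVR1B, SMAD7, GDF15, INHBA, FST and INHBB. TGFB1 and TGFBR1 changed order between the untreated libraries, as did SMAD7 and GDF15 and also INHBA, FST and INHBB, while TGFBR2, SMAD3, ACVR1B and SMAD7 kept their order in both. After induction the order was INHBA, TGFB1, TGFBR2, GDF15, TGFBR1, ACVR1B, SMAD3, SMAD7, INHBB and FST. There GDF15 lay above TGFBR2 in induced 1 and below it in induced 2, SMAD7 lay above SMAD3 in induced 1 only, INHBB and FST changed places, and TGFBR1 and ACVR1B lay within 2 RPKM of each other in both libraries.

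On the log2(RPKM + 1) scale, which understates differences of low genes, the differences between group means were 7.67 for INHBA, 3.24 for GDF15, 1.24 for TGFBR2, 0.84 for ACVR1B, 0.61 for SMAD7, 0.47 for TGFB1, -0.19 for INHBB, -0.22 for FST, -0.79 for SMAD3 and -2.00 for TGFBR1. No test is given for these genes, because they were chosen on this contrast. Over the 10771 genes whose mean reached 1 RPKM, which are the tested genes, the median difference was -0.21, so INHBB and FST lay at the median of all genes on this scale. By a step of at least 1, 3 members were higher (INHBA, GDF15 and TGFBR2; 6.88% of all tested genes were) and 1 was lower (TGFBR1; 15.8% were). The induced values lay above both untreated values for 6 members and below them for 3, and of the 8 members that passed the filter these were 6 and 2. Of all tested genes 24.1% were higher and 45.8% lower in this sense, 70% in all. FST and INHBB did not pass the filter. The filter used the mean over all 4 libraries, and INHBA, with an untreated mean of 0.632 RPKM, passed it only through the induced libraries.

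**Figure D3:**
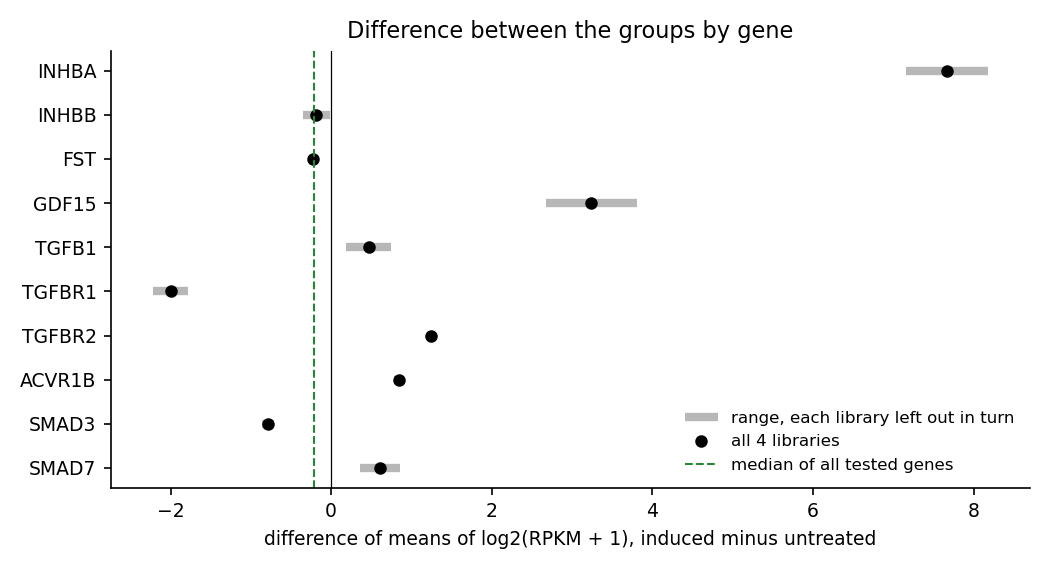
Difference between the group means of log2(RPKM + 1), induced minus untreated, for each of the 10 genes (points), with the range when each library was left out in turn (grey bars) and the median of all tested genes, -0.21 (dashed line). INHBA at 7.67 and GDF15 at 3.24 lie farthest above the median and TGFBR1 at -2.00 farthest below, and no grey bar crosses 0.

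For INHBA and GDF15 the tested genes with the most similar pattern were sought, by the distance between log2(RPKM + 1) values centred on their mean over 4 libraries. The nearest to INHBA were PPBP, a platelet chemokine (distance 0.62), the chemokine CXCL8 (0.81), the immediate early gene IER3 (1.10), the collagenase MMP1 (1.15) and an Ensembl ID without a symbol in the table (ENSG00000006075.11; 1.66). The nearest to GDF15 were PMAIP1, a BH3-only gene (0.25), ERRFI1, an inhibitor of EGF receptors (0.47), the peptide hormone gene ADM (0.66), the stress transcription factor ATF3 (0.73) and CDKN2B, which encodes an inhibitor of CDK4 and CDK6 (0.73). PMAIP1 was at 10.2, 4.08, 83.9 and 60.5 RPKM in untreated 1 and 2 and induced 1 and 2. Its likeness to GDF15, with the higher value in untreated 1, follows from its choice by this distance.

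A wider list of 124 further genes of the pathway, in 8 groups by role, placed the members among their partners. Of these, 3 were not used for lack of a matched value in all 4 files, 59 were under the filter, and 62 were tested with limma on log2(RPKM + 1) with Benjamini-Hochberg adjustment over all tested genes. At an adjusted p under 0.05, 21 were higher and 9 lower after induction, 48.4% of those tested. Over all tested genes 38.9% were called, 12.2% higher and 26.7% lower (1314 and 2871 genes). The median log2 change was 0.18 in the list and -0.21 over all tested genes. After TMM scaling, 1926 genes were called higher and 2035 lower, with 23 and 7 in the list. Without induced replicate 2 the calls over all genes were 2770 in place of 4185, and those in the list 25 in place of 30. The list holds CDKN1A, CDKN2B, MYC and GADD45B, whose changes were known when it was written. Without these, 19 of 58 tested genes were higher and 7 lower. Some tested genes of the list passed the filter through 1 group only, among them THBS1 and CDKN2B, with untreated means of 0.424 and 0.949 RPKM.

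**Figure D4:**
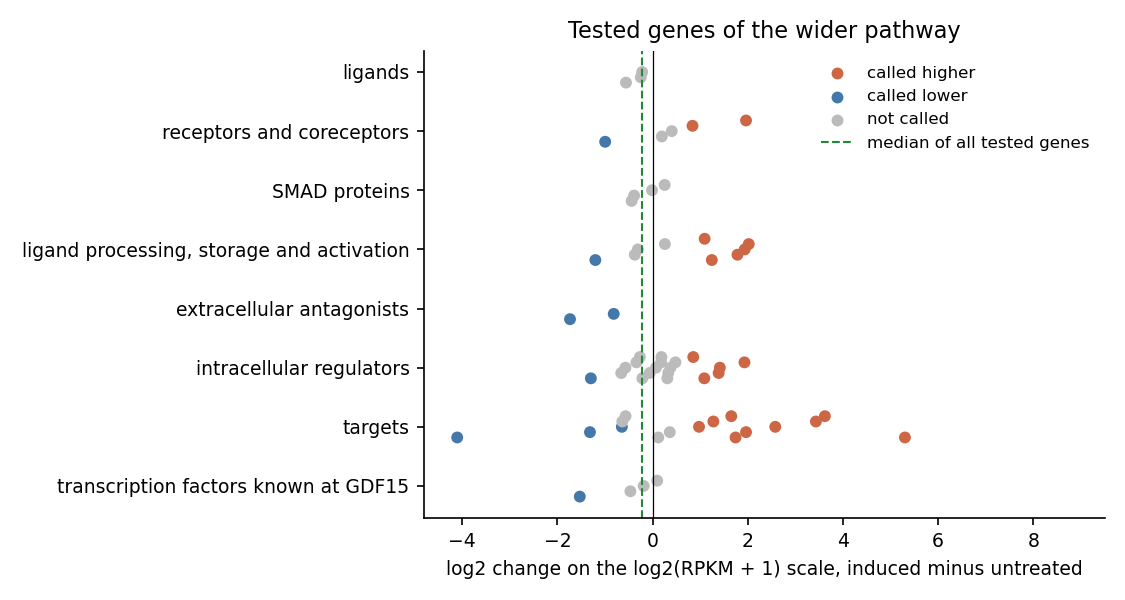
Log2 change on the log2(RPKM + 1) scale of the 62 tested genes of the wider pathway list by role, orange where limma called a gene higher, blue where lower and grey where not called; the dashed line is the median of all tested genes, -0.21. Of 9 tested genes of ligand processing, storage and activation 5 lie to the right as called. Both tested genes listed as extracellular antagonists, FSTL3 and the decoy receptor BAMBI, lie to the left.

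Few other ligands were expressed. Of 27 ligand genes in the list, 3 passed the filter (GDF9, GDF11 and AMH) and limma called 0. At an unadjusted p under 0.05 there was 1, AMH, at 2.92 ± 0.609 RPKM untreated and 1.65 ± 0.212 RPKM induced (limma adjusted p = 0.0717). BMP4, named after its values were seen, was at 0.933 and 0.910 RPKM in untreated 1 and induced 1 and at 0.103 and 0 RPKM in untreated 2 and induced 2. These are the libraries that the epithelial markers set apart, and the part of such cells in BMP4 was not tested.

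Genes that process, store and release the ligands changed most often upwards. Of 9 tested, 5 rose and 1 fell (median log2 change 1.09). THBS1, thrombospondin-1, an activator of latent TGF-beta, rose from 0.424 ± 0.218 to 4.74 ± 0.0370 RPKM (log2 change 2.02 ± 0.22 SE, limma adjusted p = 7.34e-05). LTBP1, which anchors latent TGF-beta in the matrix, rose from 1.90 ± 0.369 to 10.0 ± 0.634 RPKM (adjusted p = 8.40e-05). The integrin subunits ITGB5 and ITGAV, which pair with each other and can release TGF-beta from its latent form, were 5.64-fold and 2.90-fold higher (adjusted p = 0.000182 and 0.00172). FURIN, the protease that cuts the precursors, was outside the naming rule and is given because of that role; it went from 28.8 ± 7.19 to 61.9 ± 6.50 RPKM (adjusted p = 0.00643). NRROS, which holds latent TGF-beta on myeloid cells, fell from 12.0 ± 2.79 to 4.58 ± 0.515 RPKM (adjusted p = 0.00230).

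Both tested genes of the group listed as extracellular antagonists fell, FSTL3 and the decoy receptor BAMBI. FSTL3, a relative of follistatin that binds activins, fell from 6.95 ± 0.683 to 1.42 ± 0.605 RPKM (log2 change -1.73 ± 0.24 SE, limma adjusted p = 0.000291). It was at 7.44 and 6.47 RPKM untreated and at 1.85 and 0.996 RPKM induced. The ratio of INHBA to FSTL3 was 0.160 and 0.0118 untreated and 188 and 279 induced. BAMBI, a decoy receptor without a kinase, fell from 4.30 ± 0.358 to 2.05 ± 0.721 RPKM (adjusted p = 0.0188, 0.00171 to 0.214 over the alternatives). BAMBI was not called without induced replicate 2 (log2 change -0.57, adjusted p = 0.214), without untreated replicate 1 (0.0877), without untreated replicate 2 (0.0533), with no filter (0.131), after TMM scaling (0.0588), after quantile normalization (0.0974) and with the median shifted to 0 (0.0679). The other 7 antagonists of the list were under the filter.

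Among 5 tested receptors and coreceptors 2 rose and 1 fell (median 0.40). ACVR1, a type I receptor of bone morphogenetic proteins and activins, rose from 3.98 ± 0.534 to 18.4 ± 1.58 RPKM (log2 change 1.96 ± 0.22 SE, limma adjusted p = 8.26e-05). ACVRL1 rose from 2.60 ± 0.526 to 5.42 ± 0.476 RPKM (adjusted p = 0.0118, 0.00141 to 0.104 over the alternatives). It was not called with no filter (0.0832) or without untreated replicate 1 (0.0609), induced replicate 1 (0.104) or induced replicate 2 (0.0526). The coreceptor ENG (endoglin) fell from 23.6 ± 8.37 to 11.0 ± 0.562 RPKM (adjusted p = 0.0129, 0.000356 to 0.104 over the alternatives). ENG was not called with no filter (0.104) or without untreated replicate 2 (log2 change -0.64, 0.0754) or induced replicate 1 (0.0531). Of the type II receptors of activin, ACVR2B was at 4.75 and 4.83 RPKM untreated and at 5.01 and 6.31 RPKM induced (adjusted p = 0.511), and ACVR2A was at 0.586 RPKM or less in every library.

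Of the SMAD genes outside the members 4 were tested and limma called 0, with 0 at an unadjusted p under 0.05. SMAD4, the common partner (limma adjusted p = 0.199), was at 7.07 and 4.05 RPKM untreated and at 3.88 and 3.54 RPKM induced. SMAD1 was at 0.0874 RPKM or less in every library. Of 19 tested intracellular regulators 5 rose and 1 fell (median 0.19). DAB2, an adaptor of TGF-beta receptors, rose from 1.89 ± 0.255 to 10.2 ± 3.33 RPKM (limma adjusted p = 0.000195), and the SMAD corepressors TGIF1 and SKIL were 2.94-fold and 3.42-fold higher (adjusted p = 0.000512 and 0.000983). TGIF2, the close relative of TGIF1, fell from 6.49 ± 0.282 to 2.05 ± 0.0891 RPKM (adjusted p = 0.000773). SMURF1, a ubiquitin ligase that SMAD7 brings to the receptors, was 2.34-fold higher (adjusted p = 0.00319).

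Of 16 tested genes known as targets of the pathway 9 rose and 3 fell (median 1.13); most of them also answer to other signals. SNAI1, a transcriptional repressor, rose from 2.50 ± 0.317 to 19.99 ± 3.50 RPKM (log2 change 2.58 ± 0.23 SE, limma adjusted p = 2.01e-05). The CDK inhibitor genes CDKN1A and CDKN2B were 43.1-fold and 21.6-fold higher (limma adjusted p = 6.95e-07 and 5.95e-06). MYC, which TGF-beta represses in many cells, was 29.3-fold lower (limma adjusted p = 1.05e-06). GADD45B also fell, from 19.0 ± 1.08 to 7.06 ± 0.623 RPKM, as did BCL2L11, from 15.6 ± 0.530 to 9.63 ± 0.486 RPKM (limma adjusted p = 0.000906 and 0.0361). Other well-known targets were not called or not expressed: KLF10 was at 10.2 ± 0.290 and 11.2 ± 0.682 RPKM (adjusted p = 0.693), ID1 was at 5.23 and 1.71 RPKM untreated and 2.75 and 0.863 RPKM induced (adjusted p = 0.234), and CCN2 was at 0.0453 RPKM or less. PMEPA1, another standard target, was under the filter at 0.493 and 0.431 RPKM untreated and 0.819 and 0.758 RPKM induced. GADD45B, BCL2L11, KLF10, ID1, CCN2 and PMEPA1 are named after their values were seen.

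Of 4 tested transcription factors known to act at GDF15, limma called 1 lower and 0 higher (median log2 change -0.33). The 3 not called were ATF4, DDIT3 and EGR1. ATF4 was at 74.5 ± 5.16 RPKM untreated and at 66.0 ± 14.1 RPKM induced (limma adjusted p = 0.595), and DDIT3, which encodes CHOP, was at 10.9 ± 1.36 and 11.7 ± 0.603 RPKM (adjusted p = 0.758). EGR1 was at 1.39 and 2.70 RPKM untreated and at 1.70 and 0.718 RPKM induced (adjusted p = 0.231). A p that misses the threshold does not show that these levels were equal.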

How the data were processed

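RNA of 4 MOLM-13 libraries was measured, 2 untreated and 2 induced, grouped by the titles; replicate 2 is the title with a suffix. Per the file headers, the values deposited by the authors are RPKM, 1 per Ensembl gene ID. Per the submitters' processing notes, TopHat, Cuffnorm, Cuffdiff and the build hg19 were used, with no versions or roles. For strand the sources used here give nothing. The table of induced replicate 1 breaks off after 27332 of 57820 IDs, so genes needed a value in all 4 files. IDs were paired with symbols without their version (51996 matched) and rows of 1 symbol were summed, which left 26601 genes.

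Depth was recovered from the low values, since RPKM follow from whole reads, gene length and depth. For IDs with the same version in GENCODE 29, 100.0% of values up to 20 reads were whole within 0.01 reads. Reads of a member use the length nearest to the reference that gave whole reads, and intervals of 95% are exact and cover counting error only. With R 4.3.3 and limma 3.58.1 (lmFit, eBayes with trend), log2(RPKM + 1) was compared for the 10771 genes whose mean reached 1 RPKM, two-sided, Benjamini-Hochberg adjusted over all, threshold 0.05 (2 residual and 8.72 prior degrees of freedom). The fit was run on simulated data with independent libraries and few changed genes. Such data cannot show how the fit performs here, where many genes were called and same-numbered libraries deviated together.

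Members and lists were chosen with earlier results of these data known. Members get no test. The text names all members, up to 5 called genes of each pathway group by adjusted p, and the 5 genes nearest to INHBA and GDF15; other names are marked as chosen later or given for their role, and some genes are not reported here. Alternatives were pseudocounts of 0.1 and 5, no filter or a filter at 5 RPKM, TMM, upper quartile and quantile scaling, a robust prior, a replicate block and each library left out; a shift of the median to 0 and each replicate number alone were added after seeing the data.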

Additional observations from a re-analysis of the deposited data

How the results depend on the processing

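Of the 10 members, 9 kept the direction of their difference under all 13 alternatives run for them; INHBB went from -0.19 to 0.02 with the median change shifted to 0, which follows from that shift. With a pseudocount of 0.1 the members lower by at least 1 were 2 in place of 1, since FST reached -1.20, a larger value by construction for low genes. With the median shifted, or after TMM, upper quartile or quantile scaling, ACVR1B also reached a step of 1, so 4 members were higher by at least 1 in place of 3. The log2 difference of INHBA ranged from 5.82 to 9.35 and that of TGFB1 from 0.01 to 0.92. Calls over all genes were 2462 with no filter, where 20689 genes were tested, in place of 4185, and ranged from 2770 to 3606 with 1 library left out; the cause was not tested. Calls in the pathway list ranged from 25 to 29 with 1 library left out. Of 21 pathway genes named by the rule, 18 kept their call under each alternative that tested them, and ACVRL1, ENG and BAMBI did not. Libraries with the same number deviated together (r = 0.35 across genes), but with 2 pairs the titles alone do not show a pairing. With a replicate block the calls were 4987 over all genes and 35 in the list. At these depths FST and INHBB rest on 20 reads or fewer in each library. The exact Poisson intervals of replicates overlapped for FST in both groups and for INHBB after induction, so those differences are not resolved. For INHBB the intervals of untreated 1 (0.203 to 0.513 RPKM) and untreated 2 (0.0123 to 0.174 RPKM) did not overlap. Such intervals cover counting error only.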
